A study of Mus musculus with 26 samples.

Results

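The mouse mitochondrial genome carries 37 genes, and all 37 were found among the 51124 genes of the deposited testis table by symbols that begin with mt-. They comprise 13 mRNAs, 2 rRNAs and 22 tRNAs. Values above 0 in any library were found for 15 of them, which also passed the filter of 10 normalized counts in at least 2 libraries, and these were the 13 mRNAs and the 2 rRNAs. The 22 tRNAs were listed at 0 in every library.

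Whole testes of adult mice gave 2 libraries of ribosome-depleted total RNA for each of 3 genotypes. The labels number libraries rather than animals, and the 2 libraries of a genotype are taken here as 2 mice. N1 and N2 came from wild type (WT), N3 and N4 from *10xPerf*, and N5 and N6 from *10xBulge*. Both knock-in lines are homozygous and carry 10 target sites for the piRNA piR-A in the last exon of *Ythdc2*, a meiotic RNA helicase gene. The sites pair fully with piR-A in *10xPerf*, while those of *10xBulge* mismatch it at nucleotides 10 and 11. The alleles were made in B6D2F1/J hybrid embryos.

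Mitochondrial DNA is transcribed from both strands as long RNAs that are cut at the tRNAs into individual mRNAs and rRNAs. Its proteins are all membrane subunits of the oxidative phosphorylation complexes I, III, IV and V, and its rRNAs build the ribosome that translates them. The remaining subunits, and the factors that copy, transcribe and translate the genome, are encoded in the nucleus. In the testis, mitochondria change in number and shape as germ cells mature and end as the sheath around the sperm midpiece, and somatic Leydig cells use them for steroid synthesis.

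Several mitochondrial mRNAs have near-identical nuclear copies, which bears on how their reads were divided. On GRCm38, 7 annotated pseudogenes that match a mitochondrial gene with at least 99% identity over at least 90% of their length lie side by side on the minus strand of chromosome 1, from 24611535 to 24616197, a span of 4663 bases. *Gm28661* matches *mt-Co2* in all of its 681 bases, *Gm10925* matches *mt-Atp6* in all of its 678, and *Gm28437* matches *mt-Co3* in all of its 783. The ends of these pairs, with each copy's last base falling short of the mitochondrial gene's end, are shown because they carry the only difference within the annotated genes. Capitals mark bases of the mitochondrial gene that the copy lacks. The sequences are from GRCm38, the mitochondrial ones on the plus strand (MT:7667-7696, MT:8578-8607 and MT:9361-9390) and the copies on the minus strand (chr1:24614885-24614914, chr1:24613974-24614003 and chr1:24613189-24613218).
mt-Co2: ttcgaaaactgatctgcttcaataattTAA
Gm28661: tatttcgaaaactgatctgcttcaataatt
mt-Atp6: gtaagcctatatctacatgataatacaTAA
Gm10925: ctagtaagcctatatctacatgataataca
mt-Co3: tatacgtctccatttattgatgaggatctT
Gm28437: ctatacgtctccatttattgatgaggatct

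Of the 492 bases of *Gm29216*, the copy of *mt-Co1*, 483 align with the last part of that gene. Within these 483 bases the copy differs at A1066T, counted from 1 at the first base of *mt-Co1* with the mitochondrial base first. The copy of *mt-Nd3*, *Gm28438*, differs at T3C, counted from 1 at the first base of *mt-Nd3*. The stretches around both differences are shown with the differing base in capitals, from MT:6390-6419 and MT:9459-9488 for the mitochondrial genes.
mt-Co1: ggaAttgttttatccaactcatcccttgac
Gm29216: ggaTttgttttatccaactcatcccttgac
mt-Nd3: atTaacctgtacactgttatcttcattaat
Gm28438: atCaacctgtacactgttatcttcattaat

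Of the 585 stretches of 100 bases in *mt-Co2*, the length of the sequenced reads, 582 occur unchanged in *Gm28661*. The same holds for 579 of 582 stretches of *mt-Atp6*, for 684 of 685 of *mt-Co3*, for 243 of 249 of *mt-Nd3*, for 195 of 198 of *mt-Nd4l*, for 777 of 1279 of *mt-Nd4* and for 380 of 1446 of *mt-Co1*. The other mRNAs and both rRNAs shared no such stretch with a near-identical copy. Reads from the shared stretches cannot be told apart, so the levels of these 7 genes are uncertain. The files use GRCm39, and the sequences here are those of GRCm38.

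The deposited values divided most of the signal of one pair in favour of the nuclear copy. *mt-Co2* had 2850 and 631 normalized counts in the wild-type libraries, 873 and 1860 in those of *10xPerf*, and 493 and 1197 in those of *10xBulge*. *Gm28661* had 70206 and 69499 for wild type, 75547 and 46266 for *10xPerf*, and 31545 and 93553 for *10xBulge*. The copy therefore took 96.1% to 99.1% of the sum in every library.

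In the other pairs the mitochondrial gene took most of the sum. *Gm28437* took 0.884% to 17.9% of its sum with *mt-Co3*, *Gm10925* took 0.834% to 9.51% of its sum with *mt-Atp6*, and *Gm29216* took 6.99% to 11.7% of its sum with *mt-Co1*. *Gm28438*, *Gm10222* and *Gm28439*, the copies of *mt-Nd3*, *mt-Nd4l* and *mt-Nd4*, were listed at 0 in all 6 libraries. With its copy added, *mt-Co2* had 73055 and 70130 normalized counts in the wild-type libraries, 76420 and 48126 in those of *10xPerf*, and 32038 and 94750 in those of *10xBulge*. On that sum *mt-Co2* took place 3 among the mRNAs per kb in the wild-type mean, whereas alone it was the lowest.

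**Figure D1:**
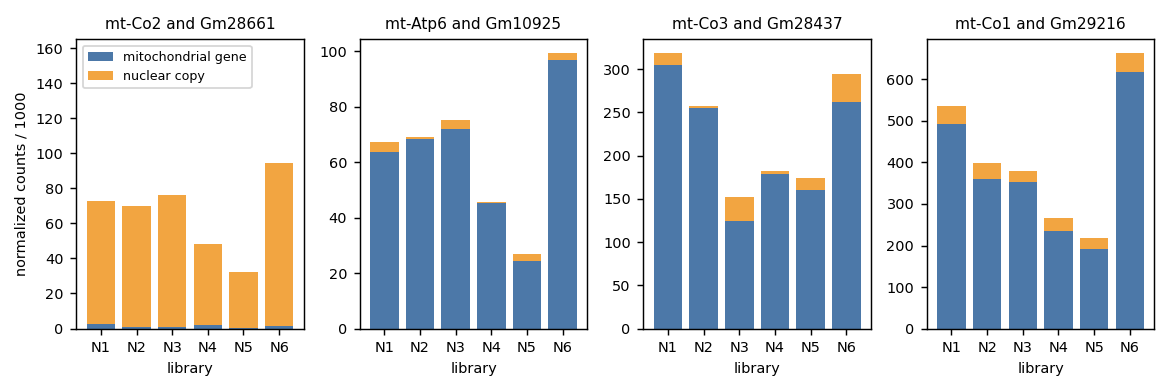
Normalized counts (in units of 1000, each panel on its own scale from 0) of 4 mitochondrial mRNAs and their near-identical nuclear copies, stacked, in wild type (N1, N2), *10xPerf* (N3, N4) and *10xBulge* (N5, N6). Nearly the whole bar of the first pair belongs to *Gm28661*, with 96.1% to 99.1% of the sum, while in the other pairs the copy took at most 17.9%.

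Cell type markers, given first because they differed between the genotypes, set *10xBulge* apart. In whole testis, fewer cells of a type and less RNA per cell cannot be told apart. All 12 spermatid markers fell in *10xBulge* against wild type (median -7.45 on the log2 scale). Their summed level was 618838 to 855089 normalized counts in the other 4 libraries, 3155 in N5 and 1397 in N6. Of the markers of Leydig cells 6 of 8 rose (median 1.77), of Sertoli cells 5 of 9 (median 1.11) and of macrophages 6 of 7 (median 1.53). The Leydig sum was 46943 to 83129 in the other 4 libraries, 319236 in N5 and 150962 in N6, and the Sertoli sum was 59465 to 86298, then 280771 and 133990, so that N5 held the higher somatic sums. Of the 10 spermatocyte markers 1 rose, of the 10 spermatogonia markers 1 rose and 1 fell, and none of the peritubular, endothelial or erythrocyte markers was called. These counts stand beside 34.4% of the 23782 genes tested, of which 2712 rose and 5466 fell. No spermatid, Leydig, Sertoli or macrophage marker was at 0 in all libraries. The part of cell composition in the mitochondrial values was not tested. *Ythdc2*, the edited gene, reached 827 and 2412 normalized counts in the wild-type libraries, 1334 and 1136 in those of *10xPerf*, and 1202 and 2458 in those of *10xBulge*, so that the genotypes overlapped and its level does not check the labels.

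The mRNAs made up a small share of the libraries. Together they accounted for 1.80% and 1.62% of all normalized counts in wild type, for 1.63% and 1.05% in *10xPerf*, and for 0.968% and 3.25% in *10xBulge*. The rRNAs accounted for 0.184% and 0.0674% in wild type, for 0.108% and 0.0660% in *10xPerf*, and for 0.0401% and 0.0492% in *10xBulge*. The mRNA share of *10xBulge* held both the lowest and the highest library, whereas its rRNA share was below all other libraries. The smallest p of an exact permutation test is 0.33 for 2 libraries per genotype, so the shares are described without a test.

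Within the mitochondrial mRNAs, some kept their place in the order of the levels per length while others moved. Per kb, *mt-Co3* and *mt-Co1*, which encode the core of cytochrome c oxidase (complex IV) together with *mt-Co2*, took the first 2 places in each of the 6 libraries. Without the copies, as in the values below, *mt-Nd4l* took place 8 and *mt-Nd4* place 9 in all 6. There *mt-Nd3* ranged from place 3 to 7 and *mt-Nd6* from 10 to 13. With each near-identical copy added to its gene, *mt-Nd4l* took place 9 and *mt-Nd4* place 10 in all 6. On those sums *mt-Nd3* ranged from place 3 to 8 and *mt-Nd6* from 11 to 13. Wild-type means per kb were 356968 ± 44602 normalized counts for *mt-Co3* and 275946 ± 60899 for *mt-Co1* (SD, n = 2). N1 and N2 had 388507 and 325429 for *mt-Co3* and 319008 and 232884 for *mt-Co1*, so that the wild-type values of these genes did not overlap. In N3 and N6 *mt-Co1* was instead above *mt-Co3*, with 227789 and 399248 against 159009 and 334596. The next gene, *mt-Atp6*, was clearly lower with 93570 and 100303 per kb, and the means then fell over *mt-Nd3*, *mt-Nd1*, *mt-Atp8*, *mt-Cytb*, *mt-Nd4l*, *mt-Nd4*, *mt-Nd2* and *mt-Nd5* to 4325 ± 736 for *mt-Nd6* and 2544 ± 2293 for *mt-Co2* without its copy (SD, n = 2). Neighbours *mt-Nd1* and *mt-Atp8* differed by less than their spread, with 52818 and 56999 against 53244 and 46286 per kb.

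**Figure D2:**
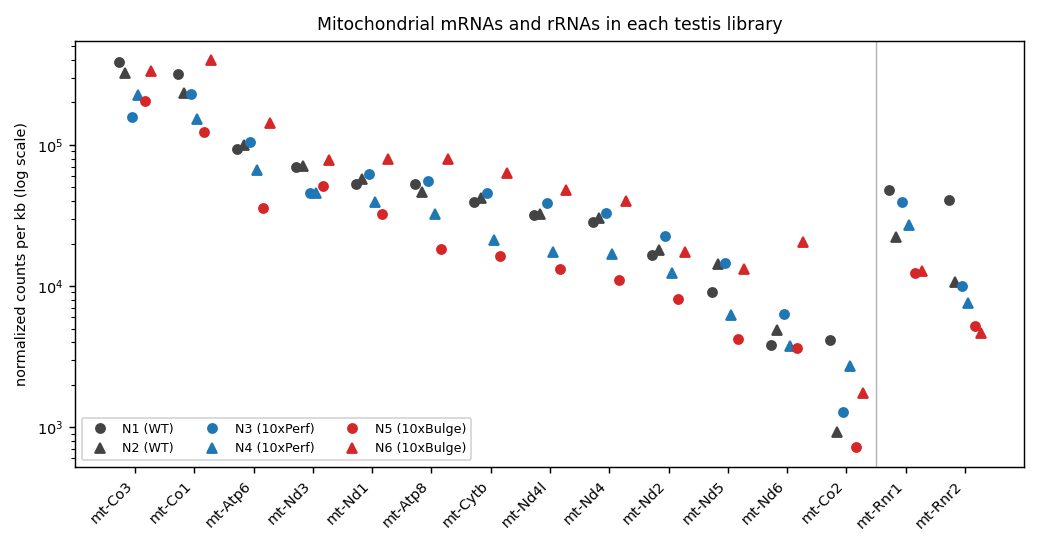
Normalized counts per kb of gene length (log scale) of the 13 mitochondrial mRNAs, ordered by their wild-type mean, and of the 2 rRNAs, with 1 point per library. *mt-Co3* and *mt-Co1* lead in every library, N6 of *10xBulge* is the highest library for 9 mRNAs and N5 of *10xBulge* the lowest for 11, and both *10xBulge* points of the rRNAs lie below all others.

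The clearest difference between genotypes among the 37 genes was in the rRNAs. *mt-Rnr2*, the 16S rRNA of the large mitochondrial ribosomal subunit (MT:1094-2675, plus strand), had 64036 and 16917 normalized counts in the wild-type libraries, 15784 and 12033 in those of *10xPerf*, and 8226 and 7404 in those of *10xBulge*. *mt-Rnr1*, the 12S rRNA of the small subunit (MT:70-1024, plus strand), had 46139 and 21255 for wild type, 37334 and 25813 for *10xPerf*, and 11852 and 12169 for *10xBulge*. Both *10xBulge* libraries were below the other 4 for either rRNA, and N1 of wild type was the highest library for both.

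In *10xBulge* against wild type, *mt-Rnr2* fell by 2.08 on the log2 scale (SE 0.60, adjusted p = 0.0323 from limma over all genes tested), and *mt-Rnr1* fell by 1.38 (SE 0.49, adjusted p = 0.0674). In *10xBulge* against *10xPerf*, *mt-Rnr1* fell by 1.37 (SE 0.49, limma adjusted p = 0.0648), while *mt-Rnr2* had a log2 fold change of -0.82 (SE 0.60, adjusted p = 0.341). In *10xPerf* against wild type neither passed the threshold of an adjusted p under 0.1. There *mt-Rnr2* had a log2 fold change of -1.26 (SE 0.60, limma adjusted p = 0.853) without overlap between the libraries, and *mt-Rnr1* had -0.01 (SE 0.49, adjusted p = 0.996). All fold changes are on the log2(value + 1) scale. The p-values rest on the spread between the 2 mice of a genotype, pooled over all genotypes. That spread was also drawn toward the trend over all genes tested, so each gene has the same SE in every comparison.

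The calls stand beside a large number of called genes in *10xBulge*. Of the 15 mitochondrial genes tested, 2 passed the threshold in *10xBulge* against wild type, both lower, beside 34.4% of all 23782 genes tested in either direction and 23% that were lower. In *10xBulge* against *10xPerf*, 1 of 15 passed, lower, beside 37% in either direction and 24.1% lower. In *10xPerf* against wild type, 0 of 15 passed, beside 0.959% of all genes, and 0 of the 15 had an unadjusted p under 0.05. The libraries of both genotypes did not overlap for 2 of 15 in *10xBulge* against wild type (62.1% of all genes), for 3 of 15 in *10xBulge* against *10xPerf* (66.1%) and for 4 of 15 in *10xPerf* against wild type (40%).

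The rRNA calls against wild type rested on N1. Without N1, the log2 fold change in *10xBulge* against wild type was -1.12 for *mt-Rnr2* (limma adjusted p = 0.166) and -0.82 for *mt-Rnr1* (adjusted p = 0.315), and neither was called. N1 also stood apart in cytoplasmic ribosomal RNA, although the libraries were depleted of ribosomal RNA. How far that depletion also removed the mitochondrial rRNAs is not stated in the sources used here. *Rn18s*, the 18S rRNA of the cytoplasmic ribosome, reached 2406107 normalized counts in N1 against 25398 in N2 (wild type), 201129 and 64443 in the *10xPerf* libraries, and 46679 and 24801 in the *10xBulge* libraries. N1, N3 and N4, in that order, were the highest libraries for both *Rn18s* and *mt-Rnr1*, while N2 of wild type was below N5 for *Rn18s*. The part of rRNA carry-over in the *mt-Rnr1* and *mt-Rnr2* levels was not tested.

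The *mt-Rnr1* calls were also close to the threshold. In *10xBulge* against wild type its adjusted p ranged from 0.0568 to 0.138 over the 12 other settings that kept all libraries and the threshold, and 6 of these called it. The call was also lost without N3 (adjusted p = 0.126 from limma) and without N4 (adjusted p = 0.132), which leave its fold change as it is. For *mt-Rnr2* the range was 0.0105 to 0.0841, and all 12 called it. In *10xBulge* against *10xPerf*, the adjusted p of *mt-Rnr1* ranged from 0.053 to 0.263, with 8 of 12 calling it, and the call was lost without N3 (-1.10, adjusted p = 0.361) and without N4 (-1.64, adjusted p = 0.147).

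The balance of both rRNAs varied among libraries as well. The ratio of *mt-Rnr2* to *mt-Rnr1* counts, not divided by length, was 1.39 and 0.796 for wild type, 0.423 and 0.466 for *10xPerf*, and 0.694 and 0.608 for *10xBulge*. The knock-in libraries were below both wild-type libraries, N1 being the highest. Set against the summed mRNAs, the rRNAs came to 10.2% and 4.15% for wild type, 6.65% and 6.31% for *10xPerf*, and 4.14% and 1.52% for *10xBulge*, where N5 of *10xBulge* and N2 of wild type lay side by side.

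**Figure D3:**
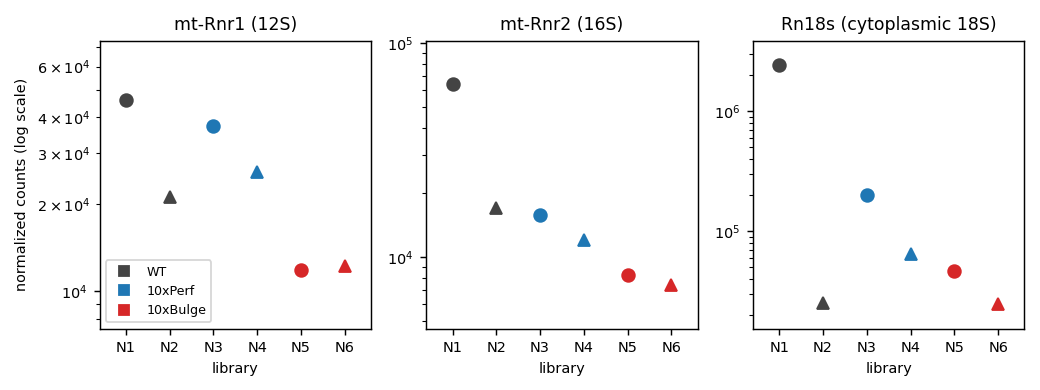
Normalized counts (log scales that differ between panels) of the mitochondrial 12S and 16S rRNAs and of the cytoplasmic 18S rRNA in each library. N1 is the highest library in every panel, with 46139, 64036 and 2406107, and N5 and N6 are the lowest pair for both mitochondrial rRNAs while N2 lies below N5 for the cytoplasmic one.

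No mitochondrial mRNA passed the threshold in any comparison. In *10xBulge* against wild type the 13 log2 fold changes ranged from -0.80 to 1.00 with a median of -0.38, and in *10xBulge* against *10xPerf* from -0.73 to 0.80 with a median of -0.05. In *10xPerf* against wild type they ranged from -0.90 to 0.19 with a median of -0.27. The medians over all genes tested were -0.03, -0.07 and 0.02 in that order. The lowest limma adjusted p of an mRNA was 0.338 in *10xBulge* against wild type, 0.435 in *10xBulge* against *10xPerf* and 0.853 in *10xPerf* against wild type, and 0 of the 13 had an unadjusted p under 0.05 in any of them. The 95% confidence intervals of the mRNAs reached from -2.47, the lower bound of *mt-Co2*, to 2.61, the upper bound of *mt-Nd6*, in *10xBulge* against wild type.

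**Figure D4:**
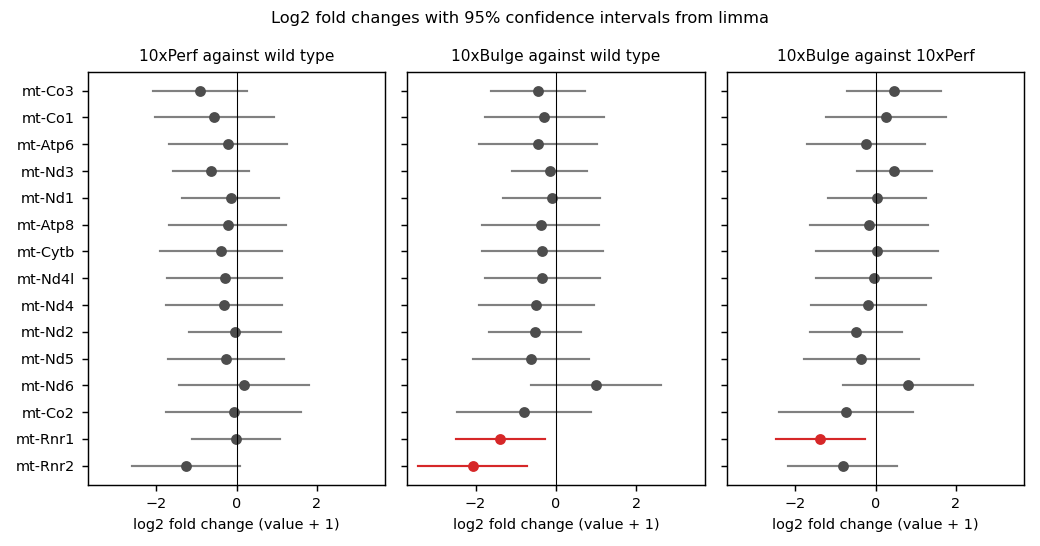
Log2 fold changes on the log2(value + 1) scale (points) with 95% confidence intervals from limma (lines) of the 15 mitochondrial genes above 0, in the 3 comparisons. Red marks an adjusted p under 0.1, which only *mt-Rnr1* and *mt-Rnr2* reached in *10xBulge* against wild type and *mt-Rnr1* in *10xBulge* against *10xPerf*, and the intervals of the 13 mRNAs all include 0.

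The wide intervals came with a large difference between the *10xBulge* mice. All 13 mRNAs were higher in N6 than in N5, by 0.61 to 2.5 on the log2 scale with a median of 1.68. Over all genes tested the same difference had a median of -0.15, with the 10th and 90th percentiles at -1.26 and 1.33. In *10xPerf*, N4 minus N3 had a median of -0.76 over the mRNAs, with 2 of 13 above 0, and in wild type N2 minus N1 had a median of 0.10, with 9 of 13 above 0. The rRNAs did not share the *10xBulge* difference, as N6 minus N5 was 0.04 for *mt-Rnr1* and -0.15 for *mt-Rnr2*.

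**Figure D5:**
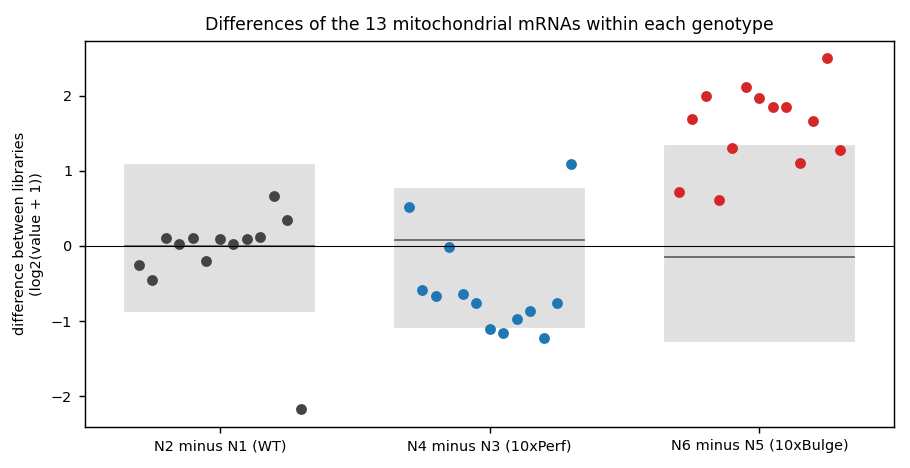
Difference between the libraries of each genotype (log2(value + 1)) for each of the 13 mitochondrial mRNAs (points, left to right in the order of their wild-type level per kb), with the 10th to 90th percentiles of all genes tested as a grey box and their median as a line. The *10xBulge* points all lie above 0, from 0.61 to 2.5, while the wild-type points lie from -0.45 to 0.66 except for *mt-Co2* at -2.17.

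The direction of the mRNAs in *10xBulge* turned on which mouse was kept. Without N6, the median log2 fold change against wild type was -1.27, and 8 mitochondrial genes were called lower, beside 8331 of all genes called in either direction. Besides both rRNAs, these were *mt-Atp6* (-1.44, limma adjusted p = 0.0369), *mt-Atp8* (-1.44, adjusted p = 0.0508), *mt-Nd4* (-1.42, adjusted p = 0.0556), *mt-Co1* (-1.13, adjusted p = 0.0760), *mt-Cytb* (-1.33, adjusted p = 0.0774) and *mt-Nd5* (-1.45, adjusted p = 0.0785). Without N5 the median was 0.54, and *mt-Nd6* was called higher, beside 7387 of all genes. With all libraries kept 8178 of the 23782 genes tested were called, 34.4% in either direction and 23% lower. The share of all genes called lower without N6, or higher without N5, is not given here.

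The complex IV genes held most of the mRNA counts. *mt-Co1* (MT:5328-6872), the catalytic subunit, had 492867 and 359806 normalized counts in the wild-type libraries, 351935 and 235115 in those of *10xPerf*, and 191995 and 616838 in those of *10xBulge*. The *10xPerf* libraries were below both wild-type libraries, with a log2 fold change of -0.55 (SE 0.66, limma adjusted p = 0.870), and N3 was close to N2.
*mt-Co3*, a further core subunit, had 304589 and 255136 for wild type, 124663 and 178388 for *10xPerf*, and 159731 and 262323 for *10xBulge*. It was below both wild-type libraries in both *10xPerf* mice, with a log2 fold change of -0.90 (SE 0.52, limma adjusted p = 0.853), while *10xBulge* overlapped wild type. The ratio of *mt-Co3* to *mt-Co1* counts was 61.8% and 70.9% for wild type, 35.4% and 75.9% for *10xPerf*, and 83.2% and 42.5% for *10xBulge*, so that the mice of each knock-in line differed more than the wild-type mice. For *mt-Co2* alone, the log2 fold change of -0.80 (SE 0.74, adjusted p = 0.461) was the lowest of the mRNAs in *10xBulge* against wild type. It was -0.38 (adjusted p = 0.673) once *Gm28661* was added, an alternative chosen after seeing the data. In *10xBulge* against *10xPerf*, *mt-Co2* was again the lowest with -0.73 (SE 0.74, limma adjusted p = 0.50), and with *Gm28661* added it had -0.14 (limma adjusted p = 0.886).

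The complex I subunits encoded on the plus strand, other than *mt-Nd3*, followed the pattern of the libraries more than that of the genotypes. *mt-Nd1*, a core subunit of the membrane arm, had 50546 and 54548 for wild type, 59182 and 37895 for *10xPerf*, and 30953 and 76180 for *10xBulge*. *mt-Nd2* had 17191 and 18606, then 23440 and 12870, and 8455 and 18220 in the same order. Each knock-in line spanned the wild-type values of *mt-Nd1*, while N6 of *10xBulge* fell between both wild-type values of *mt-Nd2*. *mt-Nd4* had 39224 and 41915 for wild type, 45690 and 23339 for *10xPerf*, and 15206 and 54874 for *10xBulge*. *mt-Nd4l*, which overlaps it by 7 bases on the same RNA, had 9439 and 9611, then 11574 and 5195, and 3942 and 14236. *mt-Nd5* had 16625 and 26296, then 26473 and 11353, and 7645 and 24135. In all 3 genes N3 was higher than N4 and N6 higher than N5.

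*mt-Nd3*, another membrane subunit of complex I, was the steadiest mRNA. It had 24305 and 24818 normalized counts in the wild-type libraries, 15937 and 15754 in those of *10xPerf*, and 17762 and 27094 in those of *10xBulge*. The *10xPerf* mice were close to each other and below the other 4, but the difference to wild type of -0.63 (SE 0.42, limma adjusted p = 0.853) and that of *10xBulge* to *10xPerf* of 0.47 (SE 0.42, adjusted p = 0.435) did not pass the threshold. Its ratio of the highest to the lowest library was 1.72, the smallest among the 15 genes, against up to 8.65 for *mt-Rnr2*.

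*mt-Nd6*, the complex I subunit gene on the minus strand (MT:13552-14070), is the only mRNA read from that strand. It had 1975 and 2515 normalized counts in the wild-type libraries, 3315 and 1958 in those of *10xPerf*, and 1873 and 10577 in those of *10xBulge*, so that N6 stood far above the other 5 and N5 was the lowest. Its log2 fold change was the highest of the mRNAs in each comparison, with 1.00 in *10xBulge* against wild type (SE 0.72, limma adjusted p = 0.338), 0.80 in *10xBulge* against *10xPerf* (SE 0.72, adjusted p = 0.438) and 0.19 in *10xPerf* against wild type (SE 0.72, adjusted p = 0.952). Set against the other 12 mRNAs of the same library, which removes the scaling between libraries, *mt-Nd6* came to 0.183% and 0.274% for wild type, 0.417% and 0.327% for *10xPerf*, and 0.388% and 0.826% for *10xBulge*. On this measure the 4 knock-in libraries were above both wild-type libraries. Relative to *mt-Nd5*, with which it overlaps by 14 bases on the opposite strand, it came to 11.9% and 9.56% for wild type, 12.5% and 17.2% for *10xPerf*, and 24.5% and 43.8% for *10xBulge*. The libraries of the 3 genotypes did not overlap in this ratio, with *10xBulge* the highest, although 2 against 2 libraries allow no exact permutation p below 0.33, and the ratio was chosen with the values known.

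The call of *mt-Nd6* depended on the treatment of GC content. With each library's trend with GC content removed, *mt-Nd6* was called higher in *10xBulge* against wild type (1.22, limma adjusted p = 0.0316) and against *10xPerf* (1.34, adjusted p = 0.0212), the latter together with *mt-Nd3* (1.01, adjusted p = 0.0675) and *mt-Co3* (0.96, adjusted p = 0.0908). In that fit 11709 genes were called in *10xBulge* against wild type and 12033 against *10xPerf*, beside 8178 and 8806 without the removal. The 15 mitochondrial genes have a GC content of 31.9% to 41.1% with a median of 36.0%, and 1.2% of the 23614 tested genes with a known GC content lie below that median.

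*mt-Cytb*, the catalytic subunit of complex III, had 45040 and 48106 normalized counts in the wild-type libraries, 52531 and 24328 in those of *10xPerf*, and 18549 and 72869 in those of *10xBulge*. The complex V genes *mt-Atp8* and *mt-Atp6*, which lie on a shared RNA and overlap by 43 bases, behaved alike. *mt-Atp6*, the proton channel subunit, had 63721 and 68307 for wild type, 71909 and 45383 for *10xPerf*, and 24266 and 96606 for *10xBulge*. *mt-Atp8* had 10862 and 9442, then 11301 and 6654, and 3733 and 16114. For all 3 genes both *10xBulge* mice lay outside the range of the other 4 libraries, N5 below and N6 above.

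Shares among the counts of the 13 mRNAs do not depend on the scaling between libraries, and they varied as well. *mt-Co1* made up 39.1% to 47.8% of the mRNA sum over the 6 libraries, and *mt-Co3* 15.6% in N3 to 33.0% in N5. *mt-Atp6* came to 5.01% to 9.0%, *mt-Nd1* to 4.68% to 7.41% and *mt-Cytb* to 3.83% to 6.58%. The lowest shares were those of *mt-Nd6*, 0.183% to 0.819%, and of *mt-Co2*, 0.0686% to 0.310%, the latter becoming 5.73% to 8.20% with the near-identical copies added.

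The tRNAs could not be compared. They are 59 to 75 bases long, shorter than the reads of 100 bases, and each was listed at 0 in all 6 libraries. The same held for all short genes, the tRNAs included, as 0 of the 181 genes under 60 bases and 0 of the 610 genes from 60 up to 75 bases were above 0 in any library. From 76 to 99 bases 7.33% of 682 genes were above 0, from 100 to 149 bases 19.3% of 1900, and from 150 bases on 75.3%. Lengths are those of the longest transcript on GRCm38.

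Few of the nuclear subunit genes of the same pathways passed the threshold. Of the nuclear subunits in *10xBulge* against wild type, 1 of 36 rose and 1 fell in complex I, 1 of 4 rose in complex II, 1 of 9 in complex III, 1 of 10 in complex IV and 0 of 15 in complex V, against 34.4% of all genes called. The median log2 fold changes of these lists were 0.09, 0.46, 0.24, 0.07 and 0.34 in that order, and that of all genes tested was -0.03. The risers were *Ndufa1* (1.63, limma adjusted p = 0.0233), *Sdha* (1.35, adjusted p = 0.0646), *Uqcrc2* (1.65, adjusted p = 0.0254) and *Cox7b* (2.28, adjusted p = 0.0121), and *Ndufa13* fell (-1.05, adjusted p = 0.0737). The calls of *Ndufa1*, *Sdha* and *Uqcrc2* were lost without N1 (1.54, 0.85 and 1.24, with limma adjusted p = 0.125, 0.306 and 0.158). That of *Sdha* was also lost without N3, N4 or N5 (adjusted p from limma 0.117 to 0.173), and that of *Ndufa13* without any one of the 6 libraries (0.114 to 0.196). None of the 4 testis isoforms of respiratory proteins (*Cyct*, *Cox6b2*, *Cox7b2* and *Cox8c*) was called (median -0.76). In *10xPerf* against wild type, 0 genes of any of these lists passed.

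Among the factors that act on the mitochondrial genome and its RNAs, both directions occurred in *10xBulge*. *Tfam*, the packaging and transcription factor of mitochondrial DNA, had 3439 and 3322 normalized counts in the wild-type libraries, 5422 and 4916 in those of *10xPerf*, and 274 and 249 in those of *10xBulge*, and fell by 3.69 on the log2 scale (SE 0.37, limma adjusted p = 7.17e-05). *Nsun4*, which encodes a methyltransferase of the 12S rRNA, had 14547 and 11900 for wild type, 15336 and 12775 for *10xPerf*, and 918 and 964 for *10xBulge*, and fell by 3.80 (SE 0.38, limma adjusted p = 7.41e-05). The *10xBulge* libraries of both genes were far below the other 4. All 12 spermatid markers also fell in this comparison, and the part of cell composition in the falls of *Tfam* and *Nsun4* was not tested. The values are given per gene, so different transcripts of *Tfam* or *Nsun4*, and the proteins they encode, were not told apart.

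*Tfb2m*, the initiation factor of mitochondrial transcription, rose by 1.84 (limma adjusted p = 0.0144) from 348 and 539 normalized counts in wild type to 1170 and 2054 in *10xBulge*. In all, 2 of the 14 genes of transcription and replication rose and 2 fell (median 0.63), and 3 of 17 genes of RNA processing rose and 1 fell (median 0.65). Of the 17 mitochondrial aminoacyl-tRNA synthetases 7 rose and 1 fell (median 0.94), among them *Hars2* (1.78, limma adjusted p = 0.0131) and *Nars2* (1.37, adjusted p = 0.0329). Of the 78 genes listed as mitochondrial ribosomal proteins by symbol alone (Mrpl or Mrps), 7 rose and 2 fell (median 0.24). The smallest p was that of *Mrps36*, which fell by 2.29 (limma adjusted p = 0.00184), and whether its protein belongs to the ribosome was not checked. Of the 12 genes of mitochondrial mass and import 2 rose (median 0.52), *Vdac1* (1.58, adjusted p = 0.0229) and *Hspe1* (1.41, adjusted p = 0.0481), and of the 6 biogenesis regulators *Ppargc1a* alone rose, by 2.44 (adjusted p = 0.00266). The calls of *Tfb2m* (1.52), *Nars2* (1.45) and *Hspe1* (1.18) were lost without N1 (limma adjusted p = 0.111, 0.106 and 0.220), those of *Nars2* (1.29) and *Vdac1* (1.35) without N2 (adjusted p = 0.110 and 0.105) and that of *Hspe1* (1.34) without N5 (adjusted p = 0.104). Each of these counts stands beside 34.4% of all genes called.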

How the data were processed

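RNA-seq of whole testes from wild-type, *10xPerf* and *10xBulge* mice was analysed, with 6 libraries in all; 20 immunoprecipitation libraries are not analysed here. The authors quantified the reads with salmon and its GC correction on GRCm39 (Ensembl) and deposited DESeq2-normalized counts, a signal per gene that is not whole reads. Versions of salmon and DESeq2 are not given in the sources used here. The authors also deposited fold changes and adjusted p-values for each knock-in against wild type, and a mean over libraries, which were not used.

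The filter of 10 normalized counts in 2 libraries or more left 23782 genes, which were fitted as log2(value + 1) with limma 3.58.1 (R 4.3.3), genotype as the only factor and a trend of the variance with the mean, at a Benjamini-Hochberg adjusted p under 0.1. As the table holds normalized values, no count test was run. Approximate depth, from the value of 1 read in each library, was 41.1 to 61.6 M reads, and 3 reads correspond to 2.73 to 3.63 normalized counts. The deposited sums were 39754103 to 59804251. On simulated data (23782 genes), 38% of changes of 2 and 93% of changes of 4 on the log2 scale were recovered. Of the calls, 12.1% were false. The simulation changed far fewer genes than the 8178 called in *10xBulge* against wild type, so these rates do not carry over to that comparison.

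Genomic positions, lengths, GC content and sequences are from the GRCm38 genome with its GENCODE annotation, and nuclear copies were found with blastn 2.17.0 by alignment to the mitochondrial genome. Figures were drawn with matplotlib 3.10.9 in Python 3.11.15. All mitochondrial mRNAs and rRNAs are named, and of the nuclear lists the 1 to 3 members with the smallest p past the threshold, along with genes whose copies or overlaps bear on a mitochondrial gene. *Rn18s*, *Lars2* and *Ythdc2* were named after their values were seen. The members and lists were chosen with earlier results of these data known. Alternatives covered the scaling, pseudocount, filter, threshold, libraries in the fit, variance trend, GC trend and leaving out each library. Summing the nuclear copies, and scaling without the 2 most abundant genes, were chosen after seeing the data.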

Additional observations from a re-analysis of the deposited data

Results flagged for a closer look

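For *mt-Rnr1*, the difference between the knock-in lines itself passed the threshold of an adjusted p under 0.1, beside 37% of all genes tested. Of the 12 other settings that kept all libraries and the threshold, 8 called *mt-Rnr1*. Its log2 fold change was -1.37 in *10xBulge* against *10xPerf* (SE 0.49, limma adjusted p = 0.0648), beside -1.38 in *10xBulge* and -0.01 in *10xPerf* against wild type. Without N3 the difference was -1.10 (adjusted p = 0.361) and without N4 -1.64 (adjusted p = 0.147).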

How the results depend on the processing

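Of the 285 values that the 15 fold changes of single mitochondrial genes with an SE in the text took under other settings, 252 kept their direction and their side of the threshold, 18 lost the threshold, 5 gained it and 10 changed sign. In *10xPerf* against wild type *mt-Rnr1* turned to 0.12 when scaled by library totals with or without the mitochondrial genes, and to 0.051 without the 2 most abundant genes, while *mt-Nd6* turned to -0.12 with the GC trend removed. The count of mitochondrial genes lower in *10xBulge* against wild type fell from 2 to 1 under each scaling by a library total, without the filter, with only the 2 genotypes compared, with the threshold at 0.05, and after removal of the GC trend. The count lower in *10xBulge* against *10xPerf* fell from 1 to 0 when scaled by library totals with or without the mitochondrial genes, without the filter, with the threshold at 0.05, and after removal of the GC trend. With the GC trend removed, 1 gene was higher in *10xBulge* against wild type and 3 against *10xPerf*, and the median of the mRNAs in the latter was 0.44. The stricter threshold acts by its construction, and for the other settings the cause was not tested.

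Leaving out each library in turn, the count of genes in *10xBulge* against wild type ranged from 0 to 8 lower and from 0 to 1 higher, and against *10xPerf* from 0 to 3 lower and from 0 to 1 higher. In *10xPerf* against wild type it stayed at 0. The median of the mRNAs ranged from -1.27 to 0.54 in *10xBulge* against wild type and from -0.98 to 0.77 against *10xPerf*. The median of the rRNAs ranged from -2.49 to -0.97 in *10xBulge* and from -1.39 to 0.13 in *10xPerf* against wild type. Of those 15 fold changes, the ones that changed sign were *mt-Rnr1* (-0.57 to 0.55) and *mt-Nd6* (-0.19 to 0.57) in *10xPerf* against wild type, *mt-Co2* (-1.89 to 0.28) and *mt-Nd6* (-0.25 to 2.25) in *10xBulge* against wild type, and *mt-Nd6* (-0.44 to 2.05) in *10xBulge* against *10xPerf*. The lone library of a genotype was then assumed to vary like the others. The counts of mitochondrial genes with a library left out are given without the share of all genes in the same direction. The mRNA fold changes given only as ranges changed sign in 5 of 117 values with all libraries kept and 12 of 54 with a library left out in *10xPerf* against wild type, 16 of 143 and 10 of 66 in *10xBulge* against wild type, and 20 of 130 and 17 of 60 in *10xBulge* against *10xPerf*. The 14 fold changes printed for nuclear genes never changed sign, and lost the threshold in 10 of 182 values with all libraries kept and in 18 of 84 with a library left out. The planned median of the tRNAs could not be given, as all were listed at 0. Shares taken over the genes that are not mitochondrial differed from those over all genes by less than the spread between replicates. With 2 mice per genotype, differences of a few-fold are often missed.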

Other observations

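*Lars2*, the nuclear gene for the mitochondrial leucyl-tRNA synthetase, stood apart from the other synthetases. It reached 151708 normalized counts in N1 against 2582 in N2 (wild type), 10109 and 6685 in the *10xPerf* libraries, and 5968 and 3229 in the *10xBulge* libraries. The other 16 synthetases summed to 19311 and 13968 for wild type, 13169 and 15018 for *10xPerf*, and 24055 and 20063 for *10xBulge*. N1 was thus the highest library for *Lars2* as it was for *Rn18s*, *mt-Rnr1* and *mt-Rnr2*, whereas the other synthetases were highest in N5. N1, N3, N4 and N5, in that order, were the highest libraries for both *Lars2* and *Rn18s*. The part of rRNA carry-over in the *Lars2* values was not tested.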
